A study of Rattus norvegicus with 26 samples.

Results

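The comparison of 2 arrays of primary smooth muscle cell RNA (primary SMC) with 6 arrays of undifferentiated rat multipotent adult progenitor cells (rMAPC) used 8 of the 26 arrays of the series. Its members were picked by their labels, with earlier results of these data known. They were the 2 primary arrays and the 3 replicates each of the clones Cl19 and 3c3 on day 0 (d0). The gene lists below were chosen with those results known too. A difference was counted only where it had the same sign against each clone. The series followed both clones through 6 days of smooth muscle differentiation, and the primary cells were its reference for mature smooth muscle. The other 18 arrays, from later days, entered the fit only to estimate the spread and are quoted here for a few genes.

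Both clones were Oct4-expressing lines that came from bone marrow of female Fischer rats, Cl19 from a donor 3 weeks old and 3c3 from embryonic day 18 (E18). The d0 arrays were the start of a course of TGF-β1 and PDGF-BB in basal rMAPC medium, so they stand for the state before these factors had acted. Each clone is 1 line. The source of the primary RNA is given differently in the sources used here: a label describes a commercial rat aortic RNA, whereas the methods describe commercial RNA of rat primary smooth muscle cells, run in duplicate, and a legend names cultured aortic SMCs (RAOSMCs). Age, sex and strain of the primary donors were not given. The methods call the 3 replicates of each time point biological, without saying how they were separated. No source used here says that the 2 primary arrays were separate RNA preparations, so the spread between those 2, on which the p-values rest in part, may be technical.

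Smooth muscle cells of the artery wall contract through an actin-myosin apparatus that is regulated by calponin, tropomyosin and myosin light chain kinase, and they deposit the collagens and elastic fibres that carry the load of the vessel. rMAPC are cultured progenitors that express *Pou5f1* (Oct4), the transcription factor that maintains the undifferentiated state of the early embryo, and rat lines of this kind are known to share many transcripts with the primitive endoderm, the extraembryonic layer that lines the early yolk sac. Primitive endoderm is an epithelium that rests on a laminin-rich basement membrane, whereas smooth muscle is a mesenchymal cell type.

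The arrays were 1-colour Agilent arrays, and all levels below are log2 signals after quantile normalization of the processed signal over the 26 arrays. Levels are compared between arrays for 1 probe at a time, except where the signals of a marker list are summed. Tested were probes that in 1 or more of the 9 groups of the series were well above background on each array, which left 24442 probes and 11949 named genes. A gene or probe was called higher or lower where the limma test gave a Benjamini-Hochberg adjusted p below 0.05 and a difference of at least 2 log2 units, with the same sign, against each clone. In the higher direction this held for 3485 probes (14.3%) and in the lower direction for 4869 probes (19.9%), and with each gene read by its brightest probe for 1689 genes (14.1%) and 2204 genes (18.4%). These shares are the background for each gene group below. Both comparisons share the 2 primary arrays, so a difference in those arrays enters both.

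The median difference over all tested probes was -0.26 log2 units against Cl19 and -0.25 against 3c3. It was 0.05 and 0.06 with each array scaled to its 75th percentile, -2.0 and -1.92 in the deposited log2 table, which was not normalized between arrays, and -3.68 and -3.71 when the arrays were scaled on the spike-in RNA, an alternative chosen after seeing the data. Accordingly the share of calls in the higher direction was 41.7% as reported, 53.8% with the 75th percentile, 52.8% with the normexp background correction, 52.9% with a floor on dim signals, 11.1% in the deposited log2 table and 3.5% with the spike-in scaling. The 10 spike-in probes, which report viral transcripts added to 1 µg of total RNA, had normalized levels that were higher on the primary arrays by a median of 3.13 (0.43 to 3.84) than on Cl19 d0 arrays and by 3.16 (0.44 to 3.81) than on 3c3 d0 arrays. The share of features well above background was 43.6% and 44.5% on the primary arrays and 49.5% to 56.6% on the d0 arrays. The part of these shifts in the gene results was not tested. The primary arrays shared 1 slide and 1 scan that held no d0 array, so slide and cell state cannot be told apart. Many calls in the higher direction were lost with the spike-in scaling, which left 666 of the 24442 tested probes higher and 18370 lower. Counts under it are given beside most groups below and are to be read against these counts over all probes. On the array of 3c3 d0 replicate 3 the negative controls were brighter (31.5 against 10.9 to 14.0 on the other 7 arrays), and without that d0 array the counts were 3450 and 4870.

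**Figure D1:**
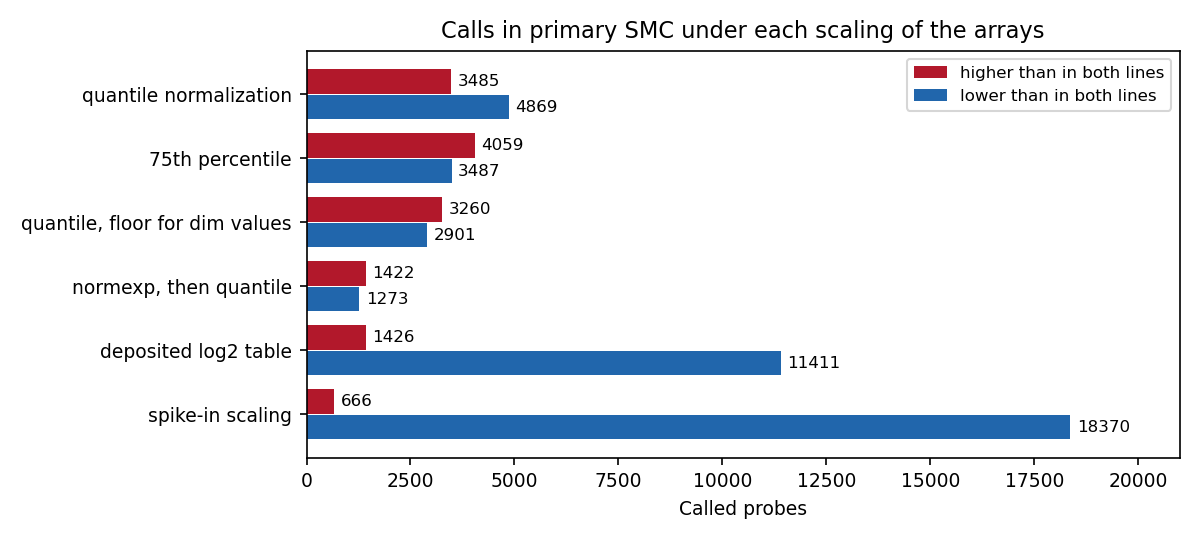
Number of probes called higher (red bars) and lower (blue bars) in primary SMC than in both clones under 6 ways to scale the arrays. The counts are 3485 and 4869 with quantile normalization and 666 and 18370 with the spike-in scaling.

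The 2 primary arrays differed from each other little. Their median absolute difference was 0.116 log2 units, against 0.166 to 0.226 within Cl19 d0, 0.23 to 0.311 within 3c3 d0, and 1.446 to 1.548 between a primary and a d0 array. The Pearson correlation across probes, which are not independent replicates, was 0.984 for the primary pair, 0.974 to 0.987 between arrays of both clones, and 0.705 to 0.723 between primary and d0 arrays.

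The 4 markers of the cell states separated the samples as their labels say. *Tagln*, which encodes the actin-binding protein SM22α, had levels of 16.29 and 16.25 on the primary arrays, 9.39, 9.19 and 9.35 on the Cl19 d0 arrays and 8.95, 8.61 and 8.93 on the 3c3 d0 arrays. Both primary values lay far above every d0 value, and the difference was 6.96 ± 0.37 (SE) log2 units against Cl19 (125-fold, adjusted p = 2.16e-12) and 7.44 ± 0.37 against 3c3 (174-fold, adjusted p = 7.63e-13). *Myh11*, the smooth muscle myosin heavy chain, had levels of 10.45 and 10.47 on the primary arrays, 5.60, 5.40 and 5.78 on Cl19 d0 arrays and 5.92, 5.56 and 6.13 on 3c3 d0 arrays. It was 29.2-fold and 24.1-fold higher, again with no overlap between the groups (differences of 4.87 and 4.59, adjusted p = 2.68e-13 and 5.99e-13). A second *Myh11* probe gave smaller differences of 2.48 and 2.38 log2 units with the same call, and both probes were named from the array's description alone.

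*Cnn1*, calponin, an inhibitor of the myosin ATPase, had levels of 11.81 and 11.80 on the primary arrays, 8.06, 7.62 and 7.82 on the Cl19 d0 arrays and 8.37, 8.37 and 8.61 on the 3c3 d0 arrays. The groups did not overlap, and the differences of 3.97 ± 0.21 (15.7-fold, adjusted p = 1.97e-12) and 3.35 ± 0.21 (10.2-fold, adjusted p = 2.40e-11) were the smallest of the 3 muscle markers. With the spike-in scaling the *Cnn1* differences were 0.50 and -0.16, and those of *Myh11* 1.21 and 0.92, so that neither was called. In the deposited log2 table, which is not normalized between arrays, *Cnn1* differed from 3c3 by 1.62 and was not called either. *Pou5f1* had levels of 3.29 and 1.87 on the primary arrays, where it was not well above background, against 10.31, 10.31 and 10.22 on Cl19 d0 arrays and 11.47, 11.63 and 11.49 on 3c3 d0 arrays. It was at least 90.9-fold lower in primary SMC than in Cl19 d0 and at least 216-fold lower than in 3c3 d0 (adjusted p = 7.64e-08 and 8.32e-09). For such a bound the mean of the bright group was divided by that of the dim group, with each dim array set to the lowest signal well above background on it or to the probe's own signal, whichever was higher.

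**Figure D2:**
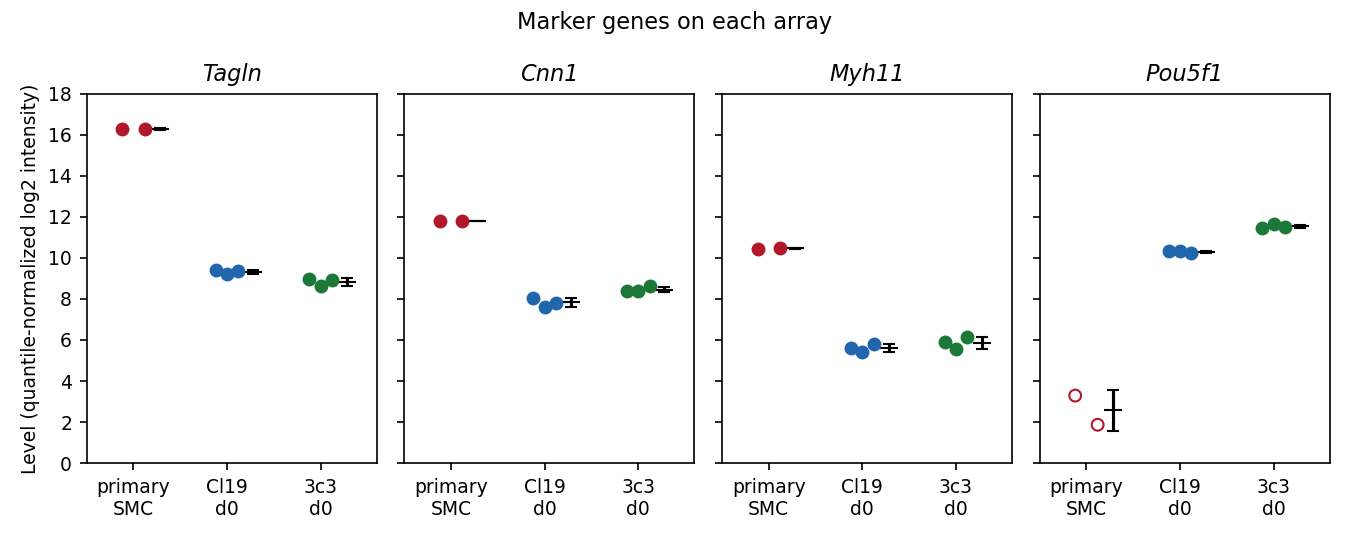
Normalized log2 level of the 4 markers on each array (points), with the mean and SD of each group beside them, and open points for a group in which at least 1 array was not well above background. *Tagln*, *Cnn1* and *Myh11* are higher on both primary arrays than on each d0 array, and *Pou5f1* is lower.

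At the end of the course, d6, the markers stood at different distances from the primary level. On d6 the mean level of *Tagln* was 15.85 in Cl19 and 14.78 in 3c3, and that of *Cnn1* 11.39 and 11.12, whereas *Myh11* was at 5.36 and 5.49, near its d0 level. *Pou5f1* was at 1.13 in Cl19 d6, where 1 of 3 arrays was well above background, and at 7.42 in 3c3 d6.

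The sequence before the transcription start is shown for 4 genes that differed strongly between the cell states. They were *Cnn1* of the contractile group, *Col1a2* of the matrix group, *Lin28a* of the pluripotency group and *S100a4*. By its brightest probe *S100a4* was the most changed gene with signal well above background on all 8 arrays. Printed are the 250 bases before the start of transcription annotated in RefSeq (GRCr8), 5′ to 3′ on the gene's strand. Starts are as annotated, and whether transcription begins there in these cells was not tested. Capitals mark matches of TATAAA, the core of a TATA box, and of CCAAT, the letters of the CCAAT box, on either strand. *Cnn1* lies at chr8:28908187-28908436 on the plus strand, *Col1a2* at chr4:33518307-33518556 on the plus strand, *S100a4* at chr2:178388279-178388528 on the plus strand and *Lin28a* at chr5:151527885-151528134 on the minus strand.
Cnn1: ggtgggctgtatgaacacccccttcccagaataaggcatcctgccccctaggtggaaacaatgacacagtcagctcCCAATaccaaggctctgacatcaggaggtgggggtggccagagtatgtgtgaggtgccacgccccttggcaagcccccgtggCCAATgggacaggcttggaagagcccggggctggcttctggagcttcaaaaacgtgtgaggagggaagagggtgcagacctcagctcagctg
Col1a2: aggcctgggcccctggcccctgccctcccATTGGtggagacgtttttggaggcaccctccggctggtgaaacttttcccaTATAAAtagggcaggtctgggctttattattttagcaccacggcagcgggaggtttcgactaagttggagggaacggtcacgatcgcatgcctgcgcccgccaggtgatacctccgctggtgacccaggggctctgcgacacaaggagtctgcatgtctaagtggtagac
S100a4: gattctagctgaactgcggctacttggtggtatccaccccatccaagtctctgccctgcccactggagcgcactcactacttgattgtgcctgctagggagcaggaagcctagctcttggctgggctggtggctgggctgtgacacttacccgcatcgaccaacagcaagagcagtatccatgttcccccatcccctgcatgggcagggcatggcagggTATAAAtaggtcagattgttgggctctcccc
Lin28a: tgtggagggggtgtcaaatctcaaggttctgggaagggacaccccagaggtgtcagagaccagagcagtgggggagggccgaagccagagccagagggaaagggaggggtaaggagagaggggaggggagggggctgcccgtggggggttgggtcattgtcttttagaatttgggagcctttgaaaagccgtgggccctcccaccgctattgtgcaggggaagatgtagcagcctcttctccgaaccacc

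Among the 4, *S100a4* held TATAAA 31 bases before its annotated start. *Col1a2* held it 170 bases before the annotated start, with CCAAT read from the opposite strand at 221 bases. *Cnn1* held CCAAT at 174 and at 92 bases before its start, and *Lin28a* held neither motif in this window. Over all 33469 promoters searched, 12.9% held TATAAA and 34% held CCAAT. Among promoters of tested genes TATAAA was found in 7.39% of 10446, against 9.7% of 1413 promoters of genes called higher and 6.7% of 1941 of genes called lower. For CCAAT the shares were 35%, 33.3% and 33.7%, and for GGGCGG, the core of a GC box, 56.9%, 55.1% and 53.9%. The CArG box, the site bound by serum response factor, was found in 1.5% of all promoters, 1.27% of those of tested genes, 1.7% of those called higher and 1.75% of those called lower. The 16 promoters found for 15 of the 20 contractile genes held no match of the CArG box within these 250 bases, which says only that its letters are not in this window. No motif share was tested, and the motifs may overlap one another.

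Contractile genes were higher in primary SMC for the most part. Of 20 contractile genes, all tested, 17 were higher in primary SMC, 1 was lower and 2 were not called, against 14.1% of all genes called higher and 18.4% lower. The median difference of the group was 4.60 log2 units against Cl19 and 4.56 against 3c3, against -0.24 and -0.24 over all tested genes. Scaling on the spike-in RNA left 7 called higher and 1 lower. *Tpm2*, the β-tropomyosin that lies along the actin filament, was at 17.45 and 17.47 on the primary arrays, 9.75, 9.58 and 9.94 on the Cl19 d0 arrays and 9.33, 8.0 and 8.29 on 3c3 d0 arrays, a difference of 209-fold and 483-fold (adjusted p = 3.83e-10 and 3.98e-11). *Lmod1*, leiomodin, which nucleates actin filaments, was at 9.50 and 9.54 in primary SMC and well above background on none of the d0 arrays, so that it was at least 143-fold and 115-fold higher.

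*Actg2*, the γ smooth muscle actin, was 186-fold higher than in Cl19 d0 and 113-fold higher than in 3c3 d0, at 12.03 and 11.97 on the primary arrays against 4.46 ± 0.29 and 5.17 ± 0.06 on d0 (SD, n = 3 each). *Ppp1r14a*, the CPI-17 inhibitor of myosin phosphatase, was 42.9-fold and 37.8-fold higher, and *Myl9*, the regulatory light chain of smooth muscle myosin, 35.7-fold and 23.1-fold. *Itga8*, the α8 integrin of smooth muscle, was at 6.92 ± 0.05 in primary SMC (SD, n = 2), with no d0 array well above background, and was at least 23.5-fold and 19-fold higher. The 2 genes that were not called were *Cald1*, caldesmon (2.03 and 1.49 log2 units), and *Des*, desmin (2.27 and 1.38), which were both positive but short of 2 log2 units against 3c3. *Ppp1r12b*, a regulatory subunit of myosin phosphatase, was the exception: it was at 0.43 and 0.38 on the primary arrays, not well above background, against 4.48 to 5.61 on the d0 arrays, and thus at least 2.5-fold and 1.99-fold lower. It was not called with the normexp correction (-0.57 and -0.42) or with the floor (-1.32 and -1.0).

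Transcription regulators of smooth muscle and mesenchyme were mostly higher too. Of 24 genes on the list 18 were tested, and 13 were higher, none was lower and 5 were not called. The medians were 5.39 and 4.96 log2 units. On the spike-in scale 7 were higher and 3 lower. *Foxs1*, a forkhead factor of pericytes and vascular smooth muscle, was at 13.63 and 13.61 on the primary arrays and well above background on none of the d0 arrays (at least 2448-fold and 1974-fold higher). *Tbx18*, a T-box factor of mural and epicardial cells, was at least 231-fold and 186-fold higher, and *Prrx1*, a homeobox factor of mesenchyme, at least 180-fold and 145-fold. *Smarcd3*, which encodes Baf60c, the chromatin remodelling subunit that the study followed through the differentiation, was at 14.62 and 14.65 on the primary arrays, 5.64, 5.86 and 6.04 on the Cl19 d0 arrays and 6.67, 6.32 and 6.49 on 3c3 d0 arrays. Its groups lay far apart, with 442-fold and 282-fold higher levels in primary SMC (adjusted p = 1.38e-11 and 4.11e-11), and its d6 means of 11.98 and 11.76 lay between the d0 and primary levels.

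*Myocd*, myocardin, the coactivator of serum response factor that drives contractile genes, was at 7.04 ± 0.20 (SD, n = 2) in primary SMC, and at least 25.6-fold and 18.5-fold higher than on d0, where 1 of 6 arrays was well above background. *Hey2*, a target of Notch signalling, was at least 98.4-fold and 104-fold higher. *Srf*, serum response factor itself, was not called: it was at 12.89 ± 0.02 in primary SMC (n = 2), 13.18 ± 0.08 in Cl19 d0 and 13.27 ± 0.15 in 3c3 d0 (SD, n = 3 each), with differences of -0.29 (adjusted p = 0.188) and -0.38 (adjusted p = 0.0821). The 2 other *Srf* probes had the opposite sign and were not called either. The *Srf* cofactor *Mrtfa* was 3.54-fold and 3.14-fold higher (adjusted p = 9.28e-10 and 4.05e-09), below the fold required for a call. A second *Mrtfa* probe was called higher. The other uncalled members were *Mef2a* (0.11 and 0.75 log2 units), *Hey1* (3.55 and 1.91) and *Foxf1* (1.22 and 0.34).

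**Figure D3:**
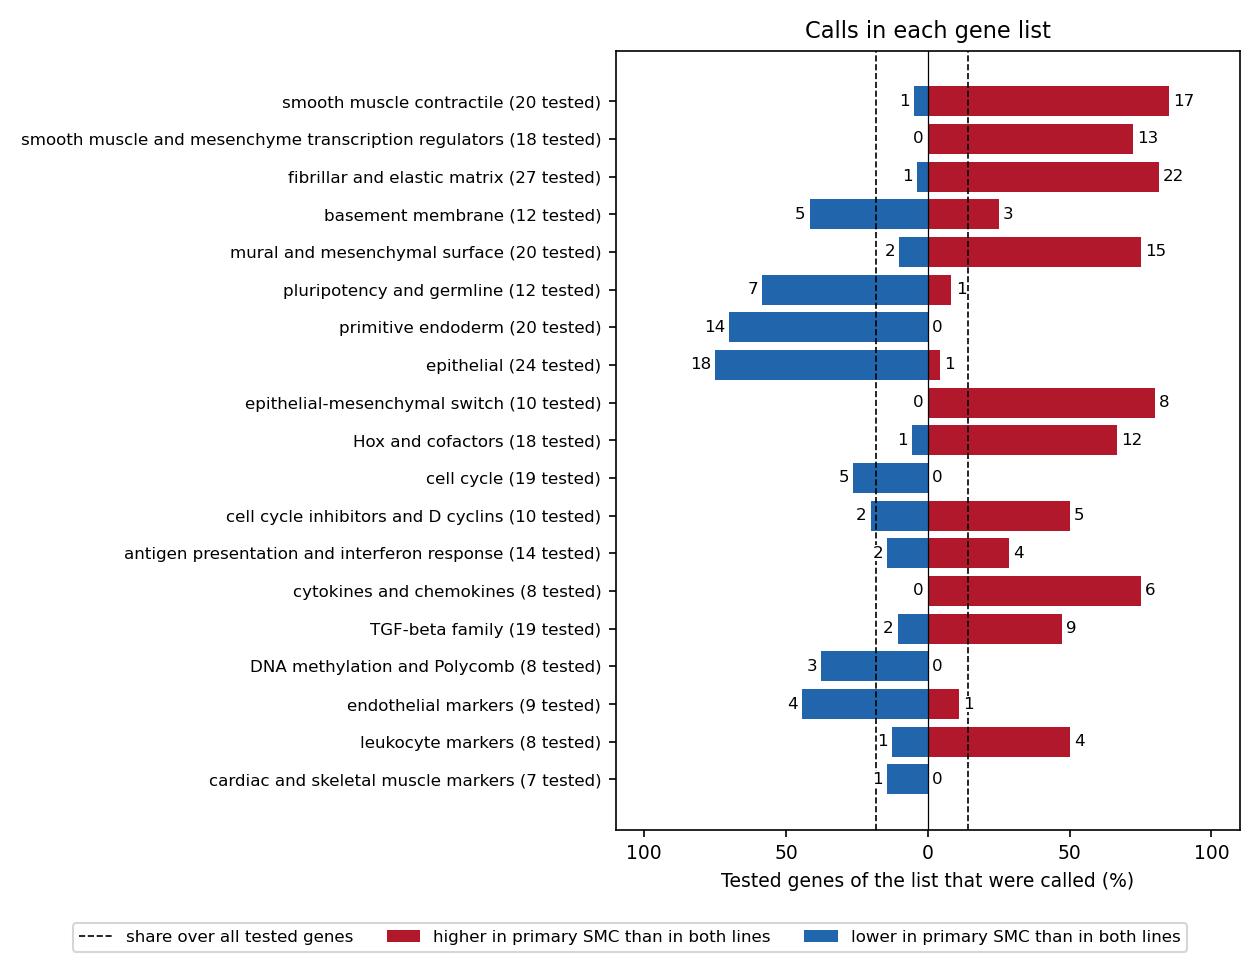
Percent of the tested genes of each list, for lists with 7 or more, called higher (red) or lower (blue) in primary SMC, with the counts written at the bars and dashed lines at the shares over all tested genes (14.1% and 18.4%). Smooth muscle, matrix, surface and mesenchymal lists lie on the higher side and primitive endoderm, epithelial and pluripotency lists on the lower side.

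Fibrillar collagens and elastic fibre genes showed the largest median difference of the 22 gene lists. Of 28 genes 27 were tested, of which 22 were higher, 1 was lower and 4 were not called, with medians of 8.21 and 8.67 log2 units. When scaled on the spike-ins, 19 were higher and 3 lower. *Col3a1*, type III collagen, was at 15.20 and 15.14 on the primary arrays and between 0.61 and 2.11 on the d0 arrays, none of which was well above background, so it was at least 7177-fold and 5788-fold higher. *Col1a2*, the α2 chain of type I collagen whose promoter is printed above, was at 15.03 and 15.25 in primary SMC and 2.65 to 3.23 on d0, where 4 of 6 arrays were well above background. It was at least 4449-fold and 4706-fold higher. Its partner *Col1a1* was well above background on all 8 arrays and differed by 9.99 ± 0.65 (SE) and 9.98 log2 units (1020-fold and 1011-fold). *Col5a2*, a collagen that regulates fibril diameter, was at least 3073-fold and 2479-fold higher.

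Of the elastic fibre genes, *Eln*, elastin, was at 13.36 ± 0.02 in primary SMC (SD, n = 2) and at least 1233-fold and 1129-fold higher, *Fbln5*, which assembles elastin onto microfibrils, at least 1417-fold and 1143-fold higher, and *Fbn1*, the fibrillin of the microfibril, 1098-fold higher than in Cl19 d0. The single lower member was *Fbln1*, a fibulin of matrix and basement membranes. It was at 4.04 and 4.93 on the primary arrays, 1 of them well above background, against 12.63 to 12.87 on d0, at least 304-fold and 305-fold lower. The uncalled members were *Timp1* (1.91 and 2.32 log2 units), *Timp2* (0.04 and 0.17) and *Timp3* (-0.05 and -0.75), inhibitors of matrix metalloproteinases, and *Mfap5* (-1.86 and -1.21), a microfibril protein with levels of 13.41 ± 0.01 in primary SMC (n = 2), 15.26 ± 0.14 in Cl19 d0 and 14.62 ± 0.23 in 3c3 d0 (SD, n = 3 each).

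Basement membrane genes divided by subunit. Of 13 genes 12 were tested, and 3 were higher, 5 were lower and 4 were not called, with medians near zero of 0.03 and 0.24 log2 units. None was higher and 8 were lower on the spike-in scale. The 3 chains of laminin-111, the laminin of the embryonic basement membrane, were called lower by their brightest probes. *Lama1* was at 1.86 and 2.30 on the primary arrays and 15.10 to 15.73 on the d0 arrays, at least 3197-fold and 3050-fold lower. *Lamb1* was at 11.18 and 11.13 against 15.20 to 15.60 (21.2-fold and 17.3-fold lower), and *Lamc1* was 8.71-fold and 7.98-fold lower. A second *Lamc1* probe had the opposite sign (0.51 and 0.69 log2 units) and was not called. The type IV collagen chains *Col4a1* (16-fold and 14-fold) and *Col4a2* (10.9-fold and 9.65-fold) were lower too, although another probe of *Col4a1* differed by -1.96 and -1.99 and was not called.

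The other laminin α chains differed in the opposite direction. *Lama5* was 37.1-fold higher than in Cl19 d0 and 113-fold higher than in 3c3 d0, *Lama4*, a chain of vascular basement membranes, 13.5-fold and at least 74-fold higher, and *Lama2*, a chain of muscle, at least 10.3-fold and 8.27-fold higher. *Lama2* was not called with the normexp correction (0.92 and 0.97) or as the mean over its probes (1.65 and 1.72). A second probe of *Lama4* differed by 0.93 and 2.84 and was not called. *Sparc*, a collagen-binding protein, was not called (-0.55 and -0.38 log2 units), and *Nid1*, which links laminin to type IV collagen, differed by 1.58 and 3.68.

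Receptors and surface proteins of mural and mesenchymal cells were higher for 15 of 20 genes, all tested, with 2 lower and 3 not called and medians of 5.51 and 5.78 log2 units. Spike-in scaling gave 10 higher and 4 lower. *Pdgfrb*, the receptor for PDGF-BB and a marker of mural cells, was at 13.77 and 13.71 on the primary arrays and well above background on none of the d0 arrays (0.33 to 2.71), hence at least 2665-fold and 2033-fold higher. *Cspg4*, the NG2 proteoglycan of pericytes, was at least 4809-fold and 3493-fold higher, and *Agtr1a*, the angiotensin II receptor through which the hormone contracts arteries, at least 773-fold and 623-fold.

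*Pdgfra*, the other PDGF receptor and a marker of primitive endoderm as well as of fibroblasts, ran the other way. It was at 9.21 and 9.28 on the primary arrays and 12.12 to 12.40 on the d0 arrays, and the groups did not overlap (8.56-fold and 8.01-fold lower, adjusted p = 4.97e-12 and 7.55e-12). *Ednra*, the endothelin receptor that mediates contraction in arteries, was at 4.96 and 5.11 against 8.39 to 9.47, 18.5-fold and 12.2-fold lower. *Tgfbr2*, a receptor of TGF-β, was 2.27-fold and 2.25-fold lower, below the fold for a call, and *Itga5*, the fibronectin receptor chain, was 2.31-fold and 1.73-fold higher. *Cdh2* was not well above background on any of the 8 arrays.

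Pluripotency and germline genes were lower for the most part. Of 24 genes on the list, 14 had a named probe and 12 were tested, of which 7 were lower, 1 was higher and 4 were not called, with medians of -4.94 and -5.76 log2 units. With the normexp correction 5 were lower and none higher, and with the spike-in scaling 10 were lower and none higher. Probes of *Nanog* and *Sall4* were not among those named here. *Lin28a*, the RNA-binding protein that blocks maturation of let-7 microRNAs, was at 4.27 and 2.83 on the primary arrays, 1 of them well above background, against 14.97 to 15.03 in Cl19 d0 and 15.40 to 15.57 in 3c3 d0. By this probe, its brightest, *Lin28a* was at least 2108-fold and 2932-fold lower. Other *Lin28a* probes were called lower with smaller differences, of -10.1 and -10.57, -8.15 and -8.52, and -3.71 and -4.16 log2 units. *Dnmt3l*, a cofactor of de novo DNA methylation in the germline and early embryo, was at least 653-fold and 1653-fold lower, and *Klf5*, a Krüppel-like factor of the early embryo, at least 386-fold and 422-fold.

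*Dnmt3b*, a de novo DNA methyltransferase, was well above background on all 8 arrays and 68.1-fold and 62.9-fold lower in primary SMC (adjusted p = 1.21e-09 and 1.54e-09). *Klf2*, a Krüppel-like factor of the early embryo and of endothelium, was the exception, 7.94-fold and 4.15-fold higher (levels of 10.55 and 10.45 against 7.45 to 8.61), and it reversed to -0.71 and -1.69 log2 units with the spike-in scaling. Without 3c3 d0 replicate 2 its difference against 3c3 was 1.97 and it was not called. *Klf4* was 3.21-fold and 7.12-fold lower and missed the call only by its fold against Cl19. *Sox2* was not well above background on any of the 8 arrays. *Kit*, the receptor for stem cell factor, differed by 0.58 and 0.88 log2 units and was not called, whereas a second *Kit* probe was called lower (-4.96 and -3.53).

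Primitive endoderm genes were lower for 14 of 20 tested genes (of 21), with none higher and 6 not called, against 18.4% of all genes called lower, and the medians were -4.81 and -4.97 log2 units. With the normexp correction 12 were lower and with the spike-in scaling 18, with none higher under either. Transcription factors of this lineage were among the genes called lower. *Gata4* was at 1.76 and 0.73 on the primary arrays and 13.46 to 13.68 on the d0 arrays, at least 913-fold and 855-fold lower. *Sox7* was at least 61.2-fold and 77.1-fold lower. *Foxa2* was 117-fold and 126-fold lower, *Sox17* 140-fold and 150-fold, and both were well above background on all 8 arrays. *Gata6* differed less, at 10.13 ± 0.02 in primary SMC (SD, n = 2) against 13.23 ± 0.22 and 13.52 ± 0.16 (n = 3 each), 8.58-fold and 10.5-fold lower (adjusted p = 2.88e-08 and 7.52e-09).

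The endocytic receptor of yolk sac and kidney epithelium showed the largest differences after *Gata4*. Its subunit *Cubn*, cubilin, was at 2.76 and 1.28 on the primary arrays and 12.64 to 13.57 on d0 (at least 824-fold and 556-fold lower), and *Amn*, amnionless, the partner that carries cubilin to the membrane, was 949-fold and 1151-fold lower, well above background on all 8 arrays. Secretory products of the more mature yolk sac included members near the limit of detection. *Afp*, α-fetoprotein, was at 2.96 ± 0.60 in Cl19 d0 and 4.28 ± 0.39 in 3c3 d0 (SD, n = 3 each), *Ttr*, transthyretin, at 3.43 ± 0.21 and 4.07 ± 0.64, and *Apob*, apolipoprotein B, was not well above background on any of the 8 arrays. *Ttr* was called lower and the other 2 were not called. *Hnf4a* (0.41 and 0.34 log2 units) and *Fst*, follistatin (0.72 and 1.12), were not called either.

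**Figure D4:**
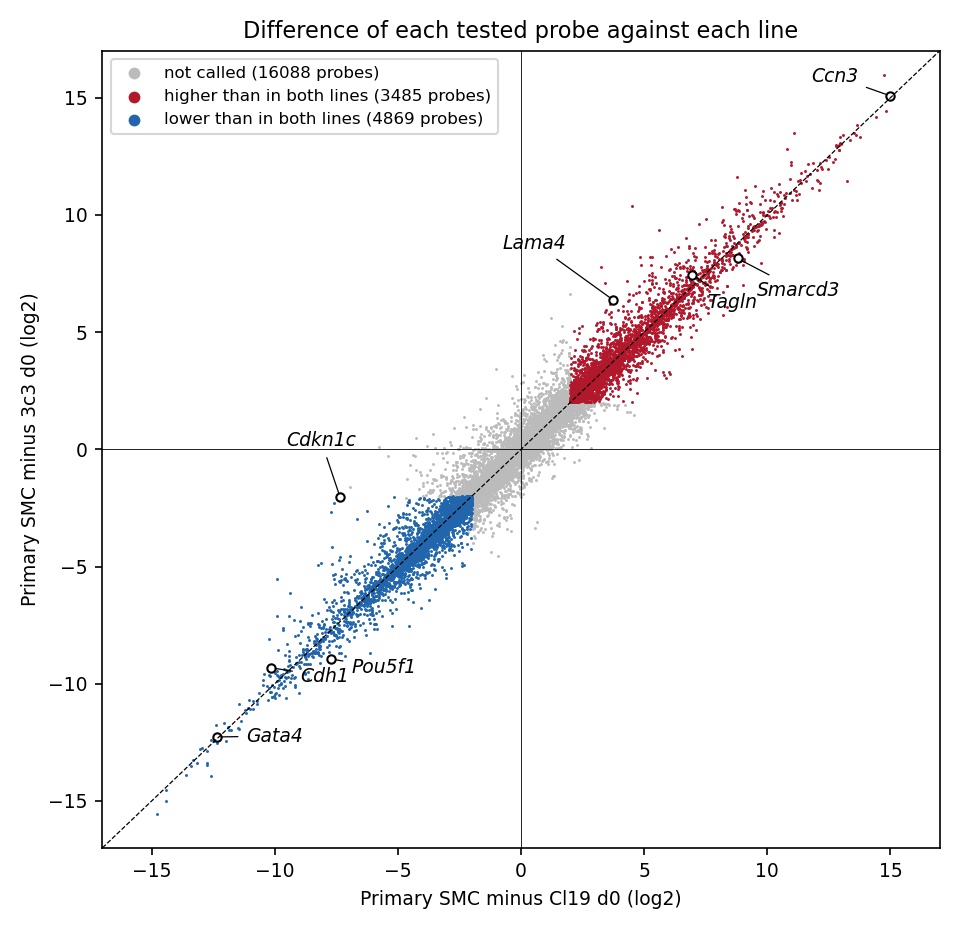
Difference of primary SMC against Cl19 d0 (x axis, log2 units) and against 3c3 d0 (y axis, log2 units) for each tested probe, red where called higher, blue where called lower and grey otherwise, with 8 genes marked. Both axes share the 2 primary arrays, so points near the diagonal are no independent support, and named genes of the smooth muscle and progenitor states lie at opposite ends.

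Epithelial genes were lower for 18 of 24 tested genes (of 25), with 1 higher and 5 not called and medians of -5.44 and -5.68 log2 units. The lower count was 11 with the normexp correction, 14 with the floor on dim signals and 23 with the spike-in scaling. *Cdh1*, E-cadherin, the adhesion molecule of epithelia, was at 0.15 and 0.15 on the primary arrays and 9.13 to 10.39 on the d0 arrays, at least 92.1-fold and 51.9-fold lower. *Epcam*, an epithelial adhesion molecule, was at least 174-fold and 171-fold lower, and the keratin *Krt19* at least 119-fold and 77.7-fold. The keratin pair of simple epithelia was well above background on all 8 arrays, and *Krt8* was 37.3-fold and 30.2-fold lower and *Krt18* 99.8-fold and 102-fold lower. *Krt7*, another simple keratin, was 11-fold and 16.5-fold higher (adjusted p = 0.0202 and 0.00786), and its difference against Cl19 was -0.24 log2 units with the spike-in scaling. Without either primary array its adjusted p against Cl19 rose to 0.0728 and 0.0762. *Krt7* was not called against either clone with the normexp correction (1.80 and 1.92 log2 units) or in the deposited log2 table (1.44 and 2.12). The uncalled members included the junction proteins *Jup*, plakoglobin (-0.07 and -0.03), and *Pkp2*, plakophilin (0.22 and 1.29).

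On the list of the epithelial-mesenchymal switch, 8 of 10 tested genes were higher, none was lower and 2 were not called, with medians of 4.8 and 4.8 log2 units. Of them 3 were higher and 1 was lower with the spike-in scaling. This list shares *Prrx1* and the Twist genes with the regulators and *Fn1* with the matrix genes. *Fn1*, fibronectin, was 112-fold and 103-fold higher, and *Twist1*, a mesenchymal transcription factor, 95.9-fold and 58.4-fold. *Zeb2*, a repressor of *Cdh1*, had no d0 array well above background (at least 12.1-fold and 9.75-fold higher), whereas its relative *Zeb1*, well above background on all 8 arrays, was 10.2-fold and 7.62-fold higher. *Snai1*, another repressor of *Cdh1*, was not called (-0.92 and -0.62 log2 units, adjusted p = 0.135 and 0.308), while *Snai2* was at least 4.42-fold and 3.56-fold higher. *Vim*, vimentin, the intermediate filament of mesenchyme, was 6.18-fold and 8.38-fold higher from levels of 13.68 ± 0.06 and 13.24 ± 0.15 on d0 (SD, n = 3 each).

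*Hox* genes and their cofactors, which mark position along the body axis, were higher for 12 of 18 tested genes, with 1 lower and 5 not called and medians of 3.35 and 3.91 log2 units. With the spike-in scaling 2 were higher and 5 lower, where 666 of all 24442 tested probes were higher and 18370 lower. With the normexp correction 5 were higher and 1 was lower. The list held 33 genes, of which 27 had a named probe and 9 of those were not tested. Among those called higher were *Hoxa2*, *Hoxa4*, *Hoxa5*, *Hoxa7*, *Hoxa10*, *Hoxb2*, *Hoxb6*, *Hoxb7*, *Hoxc6*, *Hoxd4* and *Hoxd9*. *Hoxa4* was at 9.23 and 9.32 on the primary arrays, 1.74 to 2.29 in Cl19 d0 and 3.27 to 4.06 in 3c3 d0, at least 117-fold and 46.9-fold higher. *Hoxb2* was at least 68-fold and 69-fold higher. *Hoxc9* was lower, at 4.17 and 3.62 against 8.27 to 8.86 on d0 (at least 22.9-fold and 25.7-fold).

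Most genes of DNA replication and mitosis were not called. Of 21 genes 19 were tested, 5 were lower, none was higher and 14 were not called, a share lower of 5 in 19 against 18.4% over all genes. The medians were -1.73 and -1.81 log2 units, just under the difference required for a call. With the spike-in scaling or in the deposited log2 table all 19 were lower, where 18370 and 11411 of all 24442 tested probes were. *Top2a*, the topoisomerase of dividing cells, was at 8.66 and 8.60 on the primary arrays and 11.59 to 11.87 on d0, 8.65-fold and 7.99-fold lower. *Bub1*, a kinase of the spindle checkpoint, was 6-fold and 6.66-fold lower, and *Tyms*, thymidylate synthase, at least 4.93-fold and 5.08-fold. *Tyms* was not called without primary SMC replicate 1 (-1.73 and -1.77), with the normexp correction (-1.14 and -1.18) or with the methods' test after adjustment (adjusted p = 0.0655 and 0.109). *Cdk1*, the kinase that starts mitosis, was 2.72-fold and 2.86-fold lower (adjusted p = 5.23e-04 and 3.15e-04) but was short of the fold minimum. *Pcna*, the replication clamp, differed by -0.26 and -0.35 log2 units (adjusted p = 0.616 and 0.497).

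Of 10 cell cycle inhibitors and cyclins, all tested, 5 were higher, 2 were lower and 3 were not called, and with the spike-in scaling 1 was higher and 3 were lower. *Cdkn2a* and *Cdkn2b*, neighbouring genes of the INK4 locus, were 17.8-fold and 69.9-fold higher, and 32.1-fold and 43-fold higher, respectively. With the spike-in scaling *Cdkn2b* (1.36 and 1.74 log2 units) and *Cdkn2a* against Cl19 (0.81) fell short of a call. *Ccnd2*, cyclin D2, was at least 94.6-fold and 97.4-fold higher, and *Cdkn1a*, the p21 inhibitor, 6.06-fold and 6.29-fold, although a second, dimmer *Cdkn1a* probe was not called (1.78 and 1.47 log2 units). *Ccne1*, cyclin E1, which drives entry into S phase, was 8.9-fold and 9.65-fold lower. *Cdkn1c*, the p57 inhibitor, differed between the clones: it was at 7.03 and 7.39 on the primary arrays, 14.37, 14.52 and 14.78 on the Cl19 d0 arrays and 9.44, 9.28 and 9.03 on the 3c3 d0 arrays. It was thus 163-fold lower than in Cl19 d0 and 4.11-fold lower than in 3c3 d0, and another probe of it differed by -6.95 and -1.62 and was not called. The difference against 3c3 was -1.94 without 3c3 d0 replicate 1 and -1.86 without primary SMC replicate 1, again short of a call.

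Genes of the TGF-β family were mixed. Of 22 genes 19 were tested, 9 were higher, 2 were lower and 8 were not called, with medians of 2.35 and 1.53 log2 units. The spike-in scaling gave 7 higher and 8 lower. *Tgfb1*, the factor used for the differentiation, was at 11.10 ± 0.03 in primary SMC (SD, n = 2), 4.11 ± 0.14 in Cl19 d0 and 3.98 ± 0.36 in 3c3 d0 (n = 3 each), 127-fold and 139-fold higher (adjusted p = 3.13e-14 and 2.25e-14). *Tgfb3* was at least 1927-fold and 1787-fold higher, *Tgfb2* at least 95.6-fold and 77.1-fold, and *Bmp4* 419-fold and 293-fold. *Ltbp1*, which tethers latent TGF-β to the matrix, was 16.1-fold and 36.4-fold higher.

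The lower members of the family were a ligand and a receptor. *Nodal*, the ligand that patterns the early embryo, was at 1.01 and 0.65 on the primary arrays against 4.37 to 5.41 on d0, at least 2.62-fold and 1.92-fold lower. *Tgfbr1*, the type I receptor, was at 2.83 and 3.21, not well above background, against 5.14 to 6.09 (at least 3.75-fold and 2.84-fold lower), although another probe of it differed by -0.69 and -0.69 and was not called. Neither gene was called with the normexp correction (*Nodal* -0.58 and -0.44, *Tgfbr1* -0.77 and -0.60) or with the floor (-1.39 and -0.94, -1.91 and -1.51). The feedback inhibitor *Smad7* (0.73 and 0.12 log2 units) and the BMP target *Id1* (1.17 and 0.31) were not called.

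Of 8 tested DNA methylation and Polycomb genes (of 11), 3 were lower, none was higher and 5 were not called, with medians of -1.94 and -2.01 log2 units. None was called with the normexp correction and 7 were lower with the spike-in scaling. *Dnmt3a*, a de novo DNA methyltransferase, was at least 4.52-fold and 11.2-fold lower. *Eed*, a subunit of Polycomb repressive complex 2 (PRC2), was at 8.57 and 8.61 on the primary arrays against 10.58 to 10.95 on d0, 4.18-fold and 4.81-fold lower. *Tet1*, which oxidizes methylated cytosine, was low on d0 too (2.23 to 3.76), and with a floor on dim signals its differences of -2.16 and -3.09 turned to 1.28 and 0.41. The maintenance methyltransferase *Dnmt1* was 3.85-fold and 4.02-fold lower (adjusted p = 7.86e-07 and 4.99e-07) and *Ezh2*, the catalytic subunit of PRC2, 3.42-fold and 4.05-fold. Both missed the call by the fold against Cl19.

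Cytokines and chemokines were higher for 6 of 8 tested genes (of 13), with none lower, and for 4 with 1 lower when scaled on the spike-ins. *Il1rl1*, the receptor of interleukin-33, was at 12.36 and 12.30 on the primary arrays and well above background on none of the d0 arrays (at least 1005-fold and 811-fold higher). *Cxcl12*, a chemokine of stromal cells, was 1334-fold and at least 1101-fold higher, *Ccl2*, which attracts monocytes, at least 42.8-fold and 34.6-fold, and *Csf1*, the growth factor of macrophages, 29.5-fold and 26.5-fold. Genes of antigen presentation and the interferon response were mixed. Of 16 genes 14 were tested, and 4 were higher, 2 were lower and 8 were not called, and with the spike-in scaling 1 was higher and 6 were lower. *B2m*, the light chain of MHC class I, was 9.53-fold and 8.34-fold higher and *Irf7*, an interferon regulatory factor, 10.8-fold and 9.92-fold, the latter at -0.26 and -0.43 log2 units with the spike-in scaling.

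Members of the interferon-induced transmembrane family lay on both sides. *Ifitm3* was at 12.59 and 12.59 on the primary arrays and 0.94 to 2.52 on d0, at least 1111-fold and 971-fold higher, whereas *Ifitm1*, which is expressed in early embryonic cells, was at 7.29 and 7.33 against 12.51 to 13.33, 37.6-fold and 57.9-fold lower. They are paralogs of similar sequence, and cross-hybridization between their probes was not tested. *Isg15*, a ubiquitin-like protein, was 15.8-fold and 18.7-fold lower.

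Markers of other cell types that an aortic RNA could hold were low or undetected for most genes, leukocyte markers less so. In bulk RNA fewer cells of a type and less RNA per cell cannot be told apart. Of 12 endothelial markers, 2 were well above background on both primary arrays. *Pecam1*, *Tie1*, *Tek* and *Kdr*, which define endothelium, were not well above background on either. *Pecam1*, the CD31 adhesion molecule, was at 0.34 and 0.32 on the primary arrays and 5.64 to 6.05 on d0, at least 4.07-fold and 4.14-fold lower. The summed signal of the list was nevertheless 5040 to 5109 on the primary arrays, 2232 to 2459 in Cl19 d0 and 1518 to 1772 in 3c3 d0. *Egfl7*, at 12.28 ± 0.01 (SD, n = 2) in primary SMC and not called (1.33 and 1.79 log2 units), made up most of it. *Nos3*, endothelial nitric oxide synthase, was at 5.11 and 5.19 and the single endothelial marker called higher. Of 9 endothelial markers tested, 1 was higher, 4 were lower and 4 were not called, against 14.1% and 18.4% over all genes. With the normexp correction none of them was called in either direction.

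Leukocyte markers were well above background on both primary arrays for 6 of 13 genes, and their summed signal was 1741 to 1756 in primary SMC, 316 to 424 in Cl19 d0 and 324 to 402 in 3c3 d0. Of 8 tested, 4 were higher (*Cd74*, *Ptprc*, *Cd14* and *Tyrobp*), 1 was lower and 3 were not called. Over all genes 14.1% were called higher and 18.4% lower. None of the 8 markers was higher and 2 were lower when the arrays were scaled on spike-ins. *Cd74*, the invariant chain of MHC class II, was 85.2-fold and 37.8-fold higher, *Ptprc*, the CD45 antigen of leukocytes, was at 5.24 and 4.98 (at least 6.75-fold and 5.44-fold higher, but not called with the normexp correction, at 0.53 and 0.49), and *Cd14*, a lipopolysaccharide receptor of myeloid cells, was 7.86-fold and 6.41-fold higher but at -0.78 and -1.12 log2 units with the spike-in scaling. The part of such cells in the cytokine and antigen presentation results was not tested. None of 6 adipocyte markers and none of the 3 erythroid markers with a probe was well above background on both primary arrays. Of 6 nerve markers 1 was higher, *Ncam1*, a neural adhesion molecule (at least 29-fold and 23.4-fold), and 2 were lower, and none was called with the normexp correction. Of 8 cardiac and skeletal muscle markers none was called higher. *Myh6*, the cardiac myosin heavy chain, was lower, at least 5.95-fold and 8.7-fold (not called with the normexp correction, at -1.05 and -1.38). Of this list 2 members were well above background on both primary arrays. Its summed signal was 3164 to 3319 there, 2301 to 2559 in Cl19 d0 and 1054 to 1359 in 3c3 d0. That of the nerve list was 226 to 248, 127 to 168 and 124 to 170 in the same order.

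The 12 genes with the largest differences in each direction are described next. *S100a4*, a calcium-binding protein of mesenchymal cells whose promoter is printed above, was the one of the 12 highest that was well above background on all 8 arrays. It was at 17.08 and 17.09 in primary SMC, 4.14, 3.65 and 4.62 in Cl19 d0 and 3.51, 3.56 and 4.15 in 3c3 d0, a difference of 12.94 ± 0.37 (SE) and 13.34 log2 units (7885-fold and 10386-fold, adjusted p = 1.22e-16 and 7.43e-17). Other *S100a4* probes were called higher too, by 14.73 and 15.95 and by 7.58 and 6.52 log2 units. These probes were not well above background on every d0 array. *Mgp*, matrix Gla protein, which inhibits calcification of arteries, was at least 19978-fold and 16266-fold higher. The matricellular proteins *Ccn3* and *Ccn5* were at least 8874-fold and 7157-fold, and at least 3529-fold and 2846-fold higher, and *Spp1*, osteopontin, at least 2793-fold and 2253-fold. *Ccdc80*, *Plac9*, *Gsta1*, a glutathione transferase, and *Tm4sf1*, a membrane protein, completed this group with *Col5a2*, *Col3a1* and *Foxs1*.

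**Figure D5:**
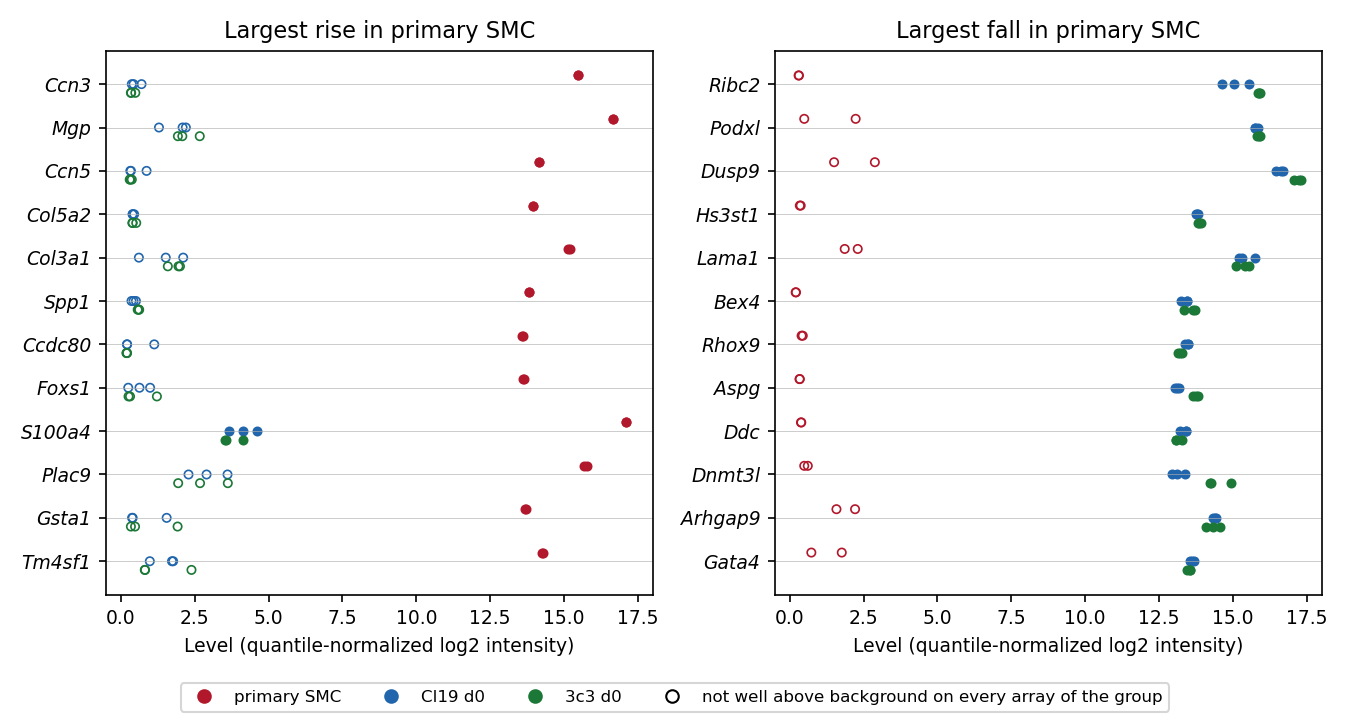
Normalized log2 level on each of the 8 arrays (points, open for a group in which at least 1 array was not well above background) for the 12 genes with the largest difference in each direction. Primary and d0 arrays do not overlap for any of them, which follows from picking the largest differences.

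On the progenitor side, none of the 12 genes was well above background on either primary array. *Dusp9*, a phosphatase that restrains ERK in the early embryo, was at 2.88 and 1.5 on the primary arrays and 16.47 to 17.30 on d0 (at least 7265-fold and 11048-fold lower). *Podxl*, the podocalyxin of apical membranes, was at least 4142-fold and 4384-fold lower and *Ribc2*, a protein of ciliary microtubules, at least 2519-fold and 4401-fold. *Hs3st1*, which sulfates heparan sulfate, was at least 1024-fold and 1089-fold lower, *Rhox9*, a homeobox gene of the X-linked Rhox cluster, at least 813-fold and 689-fold, and *Ddc*, the aromatic amino acid decarboxylase, at least 760-fold and 655-fold. The rest were *Bex4*, *Aspg*, an asparaginase, *Arhgap9*, a GTPase-activating protein, and *Lama1*, *Dnmt3l* and *Gata4* described above.

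Most calls in the lower direction, and fewer in the higher one, rested on probes that were lost in the dimmer cell state. On no primary array was the probe well above background for 3118 of the 4869 lower probes, and on no d0 array for 913 of the 3485 higher probes. Calls on probes well above background on all 8 arrays numbered 1736 higher and 1489 lower, of 15031 such probes tested. Differences of at least 6 log2 units against each clone were seen for 568 probes higher and 484 lower. No probe was called higher against one clone and lower against the other by limma, none at an unadjusted p below 0.05 with the same fold, and none by the methods' t-test. Without the fold minimum 12 probes were. For 27 of the 96 named genes 37 other probes were tested, and 32 gave the same call, 5 gave none and 0 the opposite one.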

How the data were processed

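Total RNA was labelled with Cy3 and hybridised to 1-colour Agilent rat arrays. Per the file headers the authors extracted intensity values with Agilent Feature Extraction 10.1.1.1, whose processed intensity is background-subtracted and holds surrogate values for dim features, beside flags with 0 or 1 values for features well above background, saturated or outlying. A deposited log2 table held log2 of those intensities, not normalized between arrays, and it differed from the scanner values by at most 5.2e-14. The number of arrays, not read depth, limits precision.

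The log2 processed intensity of 43379 features was quantile normalized over 26 arrays, outlying features were left out, and features were averaged to 41012 probes (263 on several features). No feature was saturated. A probe counted as well above background on an array where at least 50% of its features were. One limma model over 9 groups (limma 3.58.1 in R 4.3.3, tables in Python 3.11.15) gave each difference with its SE, and p-values were adjusted over all tested probes by the Benjamini-Hochberg method. It was tested on simulated data with known differences. A gene was read by its brightest probe. Probes were named through RefSeq by accession (16715), gene name (4584), gene number (545) or description (2), so 21846 probes had a symbol and 19166 had none. Array coordinates are rn4 and promoters are GRCr8, and neither was converted.

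The named genes were the 4 markers, the 12 genes with the largest difference in each direction ranked by the smaller of both differences, and the 3 most changed genes of each of the 22 gene lists in each direction, which gave 96 genes. Other list members, *Smarcd3* among them, were named after their values were seen, and some named genes are not reported here. The comparison, its members and the lists were chosen with earlier results of these data known. Promoters were found for 64 of the 96 named genes. Alternatives covered scaling, background correction, filters on dim probes, the fold minimum, replicate and slide blocks, the methods' t-test, each array left out and, chosen after seeing the data, scaling on spike-in RNA and list counts under other scalings.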

Additional observations from a re-analysis of the deposited data

Results flagged for a closer look

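For 5 named genes the levels of Cl19 d0 and 3c3 d0 differed by limma's test of one clone against the other, so the size of the difference from primary SMC differed between the clones too. *Cdkn1c*, the p57 inhibitor, was 5.31 log2 units higher in Cl19 d0 than in 3c3 d0 (adjusted p = 5.52e-05), with all 3 Cl19 values above all 3 values of 3c3. *Lama4*, a laminin chain, was 2.61 higher in Cl19 d0 (adjusted p = 0.00305). *Pdgfrb* differed by -1.76 (adjusted p = 1.15e-04), although none of the d0 arrays was well above background for it. *Hoxa4* differed by -1.72 (adjusted p = 0.0325) and *Dnmt3l* by -1.34 (adjusted p = 0.0269), both lower in Cl19 d0. Over all tested probes 233 differed between the clones with an adjusted p below 0.05 and at least 2 log2 units. *Pdgfrb*, *Hoxa4* and *Dnmt3l* were short of that minimum, since the 5 genes were picked on adjusted p alone. Each clone lay on slides and in a scan of its own, so clone and slide cannot be told apart.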

How the results depend on the processing

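The counts of 3485 higher and 4869 lower probes depended most on scaling and background. With the normexp correction they were 1422 and 1273, in the deposited log2 table they were 1426 and 11411, with the floor on dim signals the lower count was 2901, and with the spike-in scaling, chosen after seeing the data, they were 666 and 18370. Without a fold minimum they were 7134 and 9606, with 12 probes of opposite sign between the clones, and with a minimum of 3 log2 units 2037 and 2745. All 1422, 1426 and 666 probes in the higher direction were among the 3485. Leaving out each array gave counts of 3360 to 3476 higher and 4758 to 4891 lower, with 0 opposite. Other alternatives stayed within 1.5 times, and the cause of these shifts was not tested. Of 192 differences of named genes under 21 alternatives, spike-in scaling aside, 3941 values kept direction and call, 89 fell short of the call (39 of them with the normexp correction) and 2 reversed. Those 2 were *Tet1*, at 1.28 and 0.41 with the floor. Under spike-in scaling *Cnn1* against 3c3 was -0.16, *Klf2* -0.71 and -1.69, *Krt7* against Cl19 -0.24, *Irf7* -0.26 and -0.43 and *Cd14* -0.78 and -1.12. Of the list counts, those of nerve (2 higher) and leukocyte markers (0 lower) changed without 3c3 d0 replicate 3. Probes not well above background on a whole group gave bounds only.

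Replicate numbers were not seen to pair the primary arrays with the clones, as deviations of arrays with the same number correlated by 0.03 to 0.08. The deviations of 2 primary arrays mirror each other, so this check is weak. Between the clones, d0 arrays of the same number correlated by 0.1, 0.65 and 0.28, and those of different numbers by -0.48 to 0.3. With the replicate number as a block 3526 probes were higher, 4986 lower and 0 opposite, and of the named genes 1 call was lost, that of *Cdkn1c* against 3c3 (-1.98). With slide as a random block the counts were 3479 and 4865.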
